A study of Mus musculus with 30 samples.

Results

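The transcripts described here are 10 genes that mouse liver expresses at high level, measured in 2 tissues other than liver. They are the 3 fibrinogen chains (*Fga*, *Fgb* and *Fgg*) and 7 further liver-type transcripts (*Alb*, *Apoa1*, *Apoa2*, *Ahsg*, *Ttr*, *Serpina1a* and *Mup20*). All 10 symbols were found in both count tables, among 54838 genes listed for kidney and 55487 for gastrocnemius. The filter on low counts kept 10 of the 10 in kidney and 5 of the 10 in gastrocnemius. The members were chosen with these levels known, so their levels and differences are given as a description, and nothing rests on a test of them.

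The libraries came from male C57BL/6J wild-type mice housed at thermoneutrality (30 to 32 °C) in a study of cyclo(His-Pro) (CHP), a cyclic dipeptide, in diet-induced fatty liver disease. The mice received a chow diet with water by gavage (CD), a Western diet with water (WD), or a Western diet with CHP at 20 mg/kg 3 times per week (WD + CHP). The mice entered this housing at 6 weeks of age, diet and treatment began at week 7 of age, and tissues were taken at week 24 of age after a fast of 3 h. There were 30 libraries, with 5 for each group in either tissue. The sources used here do not say whether a kidney and a gastrocnemius with the same replicate number came from the same mouse. As separate mice are named only in the study's methods, the spread given is that between libraries.

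Fibrinogen is the soluble precursor of the fibrin clot, assembled in hepatocytes from pairs of Aα, Bβ and γ chains, and it is an acute-phase protein that interleukin 6 induces through STAT3. The 3 genes sit side by side and are read mainly in liver, with lower expression described in epithelia. Albumin, the apolipoproteins A-I and A-II, fetuin-A (*Ahsg*), transthyretin (*Ttr*), α1-antitrypsin (*Serpina1a*) and the major urinary protein darcin (*Mup20*) are secreted proteins that hepatocytes make in bulk, so that a small amount of liver RNA carries many of their reads. The kidney also transcribes some of them, and the question here is which reads occur in every kidney library and which occur in single libraries only.

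The fibrinogen genes lie within one stretch of chromosome 3 (GRCm38, GENCODE M21). *Fgg* (ENSMUSG00000033860) spans chr3:83007724-83015049 on the plus strand, *Fga* (ENSMUSG00000028001) chr3:83026076-83033627 on the plus strand, and *Fgb* (ENSMUSG00000033831) chr3:83040141-83049863 on the minus strand. *Alb* (ENSMUSG00000029368) lies at chr5:90460897-90476602 on the plus strand. The 250 bases before the RefSeq start site of each are shown because, without the 2 kidney libraries described below as apart, the chains lay lower in WD than in CD kidneys together, whereas *Alb* lay higher. The windows are chr3:83025903-83026152 (plus) for *Fga*, chr3:83049864-83050113 (minus) for *Fgb*, chr3:83007474-83007723 (plus) for *Fgg* and chr5:90460620-90460869 (plus) for *Alb*, in GRCm38.p6, written 5′ to 3′ along the gene. Capitals mark matches, on either strand, to 4 motifs: TTCNNNGAA (STAT), CTGGGAA (the interleukin 6 element), GTTAAT (a motif of liver promoters) and TTGCNNAA (C/EBP).
Fga: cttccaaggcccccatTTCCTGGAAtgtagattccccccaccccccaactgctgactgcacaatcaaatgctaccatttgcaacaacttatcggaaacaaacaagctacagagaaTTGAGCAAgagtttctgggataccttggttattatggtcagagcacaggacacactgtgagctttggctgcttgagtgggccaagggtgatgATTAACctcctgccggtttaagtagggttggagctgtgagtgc
Fgb: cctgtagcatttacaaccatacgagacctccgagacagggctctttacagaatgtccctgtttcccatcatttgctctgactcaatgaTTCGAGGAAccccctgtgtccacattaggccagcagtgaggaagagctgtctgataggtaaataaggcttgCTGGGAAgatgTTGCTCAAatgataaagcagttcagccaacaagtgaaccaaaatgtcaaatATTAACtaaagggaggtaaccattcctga
Fgg: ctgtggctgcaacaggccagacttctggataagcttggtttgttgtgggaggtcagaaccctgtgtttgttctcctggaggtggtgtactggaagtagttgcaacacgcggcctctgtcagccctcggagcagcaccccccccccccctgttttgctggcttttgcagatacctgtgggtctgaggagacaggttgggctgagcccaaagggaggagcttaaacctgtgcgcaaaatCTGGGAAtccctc
Alb: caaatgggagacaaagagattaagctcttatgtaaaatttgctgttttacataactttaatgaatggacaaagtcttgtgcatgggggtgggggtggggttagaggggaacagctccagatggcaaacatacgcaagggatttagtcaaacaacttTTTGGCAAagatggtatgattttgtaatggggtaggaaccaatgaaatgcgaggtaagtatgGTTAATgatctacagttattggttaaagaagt
The *Fga* window held TTCNNNGAA, TTGCNNAA and GTTAAT, beginning 234, 135 and 43 bases before the start. The *Fgb* window held all 4, at 162 (TTCNNNGAA), 91 (CTGGGAA), 80 (TTGCNNAA) and 29 (GTTAAT) bases. The *Fgg* window held CTGGGAA only, at 13 bases. The *Alb* window held TTGCNNAA at 94 and GTTAAT at 32 bases, and neither of the motifs tied to interleukin 6. Of 32851 mouse promoter windows of the same length, 7.02% held TTCNNNGAA, 9.1% CTGGGAA, 6.43% GTTAAT and 9.56% TTGCNNAA. These matches are of letters only, and no binding was measured.

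Kidney libraries held 37189192 to 38211422 counts, of which 17.8% to 21.1% were mitochondrial. Gastrocnemius libraries held 50319024 to 53282969, of which 7.74% to 11.5% were mitochondrial. Frozen liver is given as the source material in the sample labels, whereas the study's methods name kidney and gastrocnemius. Of 15 proximal tubule markers, 15 passed the filter in kidney and 2 in gastrocnemius, and of 12 fast-fibre markers 4 and 12 passed. Their summed levels were 38680 to 47960 CPM (counts relative to the TMM-scaled library size) for the tubule list in kidney and 223800 to 302600 CPM for the fibre list in gastrocnemius. The marker levels thus go against liver as the tissue.

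A set of 5 libraries stood apart from the others of their tissue by their albumin counts. Kidney CD replicate 1 had 3110 *Alb* counts and kidney WD replicate 5 had 16419, which were 4.94 and 26.1 times the kidney median. In gastrocnemius, CD replicate 1 had 2473, WD replicate 2 had 557 and WD replicate 3 had 2657, which were 45, 10.1 and 48.3 times the median. The other 13 kidney libraries held 347 to 1001 *Alb* counts and the other 12 gastrocnemius libraries 14 to 187. The line of 4 times the tissue median was drawn after the data were seen, and values are given below with and without these libraries.

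The same 5 libraries had the highest summed counts of other hepatocyte transcripts that were low in their tissue. In a list of 40 such transcripts outside the members, 21 had a median of at most 10 counts in kidney. Their summed counts were 722 in CD replicate 1 and 6014 in WD replicate 5, against 43 to 361 in the other 13 libraries, where the highest was WD + CHP replicate 4. All 21 were detected in these 3 libraries, and 12 to 18 in each of the other 12. In gastrocnemius 35 of the 40 had so low a median, and their sums were 1070, 493 and 2434 in CD replicate 1, WD replicate 2 and WD replicate 3, against 26 to 136 elsewhere. All 5 were CD or WD libraries and none was WD + CHP, so a difference between WD + CHP and WD in these transcripts cannot be told apart from the presence of such libraries in WD.

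*Fga*, the Aα chain, was the most abundant fibrinogen transcript in every kidney library. Its levels were 89.9, 28.8, 52.7, 55.2 and 62.6 CPM in CD replicates 1 to 5, 22.9, 21.6, 32.1, 24.3 and 39.6 CPM in WD, and 50.7, 53.3, 25.3, 18.1 and 24.7 CPM in WD + CHP. Of the 5 CD kidneys, 4 lay above every WD kidney, and CD replicate 2 lay among the WD values, so the groups overlapped. In WD + CHP, replicates 1 and 2 lay at the level of the CD kidneys and the other 3 at that of the WD kidneys or, in replicate 4, below it. *Fga* was lower in WD vs. CD by a log2 fold change of -1.04 (SE 0.303), and -0.98 (SE 0.305) without the 2 libraries apart. For WD + CHP vs. WD the value was 0.29 (SE 0.305), and 0.45 (SE 0.292) without the libraries apart, with overlapping groups both times. For WD + CHP vs. CD it was -0.75 (SE 0.301), and -0.53 (SE 0.283) without the libraries apart, again with overlapping groups.

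*Fgb*, the Bβ chain, had the lowest level of the 3 in every kidney but WD replicate 5 and, with that library set aside, the clearest split by diet. CD kidneys had 7.91, 2.39, 3.37, 6.53 and 6.31 CPM, WD kidneys 1.27, 1.43, 1.46, 1.85 and 20.5 CPM, and WD + CHP kidneys 1.75, 1.53, 1.06, 1.89 and 1.65 CPM. The 20.5 CPM belonged to WD replicate 5, the library with 16419 *Alb* counts, and the other 4 WD kidneys lay below every CD kidney. All 5 WD + CHP kidneys lay below every CD kidney as well, at the level of WD replicates 1 to 4. With all libraries the log2 fold change was 0.01 (SE 0.637) in WD vs. CD, and without the 2 libraries apart it was -1.63 (SE 0.279), from a mean of 4.65 ± 2.08 CPM (SD, n = 4) to 1.5 ± 0.246 CPM (SD, n = 4). For WD + CHP vs. CD it was -1.75 (SE 0.713) with all libraries, and -1.56 (SE 0.26) without CD replicate 1 and WD replicate 5.

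*Fgg*, the γ chain, followed the same course. Levels were 14.8, 5.78, 8.99, 13.1 and 20 CPM in CD, 4.85, 4.93, 4.5, 6.07 and 13.9 CPM in WD, and 7.18, 5.09, 3.53, 4.08 and 5.6 CPM in WD + CHP. The highest WD value was again replicate 5, and the lowest CD value, replicate 2, lay just under WD replicate 4 and WD + CHP replicate 1. The log2 fold change of *Fgg* was -0.87 (SE 0.329) in WD vs. CD and -1.23 (SE 0.295) without the libraries apart. For WD + CHP vs. CD it was -1.30 (SE 0.338), and for WD + CHP vs. WD it was -0.43 (SE 0.347) and 0.01 (SE 0.294) without the libraries apart.

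**Figure D1:**
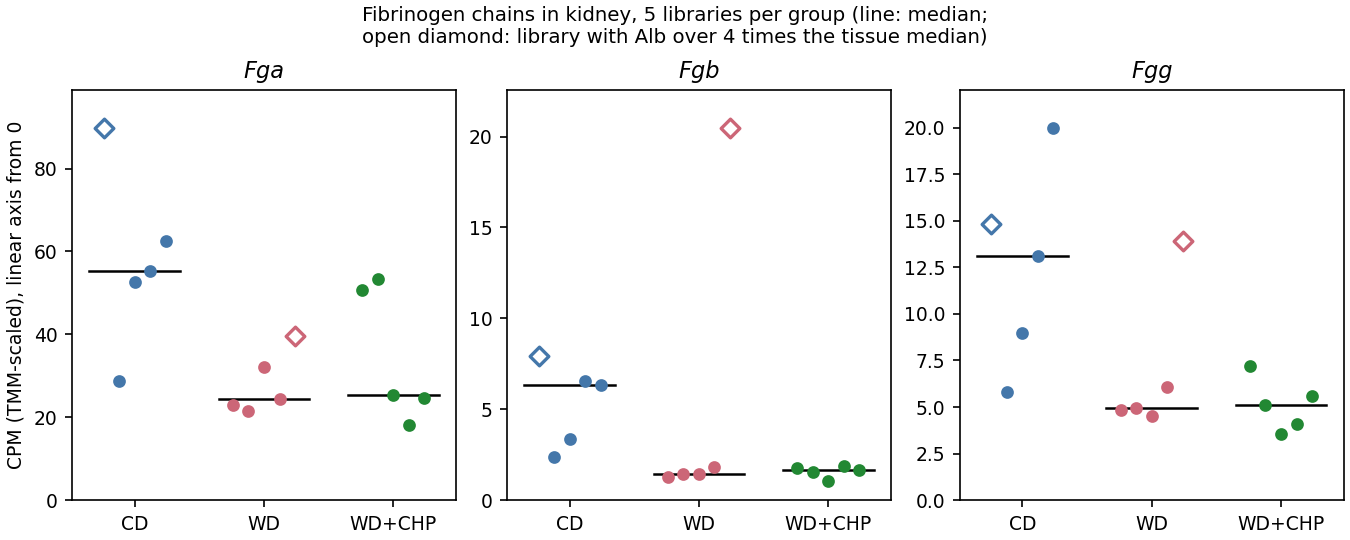
CPM of *Fga*, *Fgb* and *Fgg* (vertical axes, linear from 0) in the 5 kidney libraries of each group (horizontal axis), with the group median as a line. Open diamonds mark CD replicate 1 and WD replicate 5, and in the *Fgb* panel the WD diamond at 20.5 CPM stands above 4 WD libraries at 1.27 to 1.85 CPM.

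The mean log2 fold change of the 3 chains was -0.63 in WD vs. CD and -1.26 in WD + CHP vs. CD, which share the CD libraries. For WD vs. CD it was -1.43 without WD replicate 5 and -1.28 without both libraries apart. In WD + CHP vs. WD it was -0.63 with all libraries and 0.18 without WD replicate 5, so the sign of that difference rested on 1 library. In the 13 kidneys outside the libraries apart, WD and WD + CHP differed by less than the spread between libraries for each chain.

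In WD replicate 5, which was rich in hepatocyte transcripts, *Fgb* and *Fgg* had 794 and 540 counts, against 48 to 70 and 166 to 230 in the other WD kidneys. Among the 13 kidneys outside the libraries apart, those poorest in hepatocyte transcripts still held fibrinogen counts. CD replicate 3 held 0 counts of *Ahsg* and 0 of *Mup20*, and 2015 counts of *Fga*, 129 of *Fgb* and 344 of *Fgg*. CD replicate 5 held 2 counts each of *Ahsg* and *Mup20* beside 2461, 248 and 787 of the chains. WD + CHP replicate 4, with 43 *Ahsg* counts the highest of the 13, had the lowest *Fga* count of all 15 kidneys, 654. Per 100 *Alb* counts, the 13 kidneys held 65.3 to 697 *Fga*, 6.76 to 70.3 *Fgb* and 14.7 to 223 *Fgg* counts. The 3 gastrocnemius libraries apart held 5.03 to 7.2 *Fga*, 4.14 to 6.59 *Fgb* and 4.49 to 4.89 *Fgg* counts per 100 *Alb* counts.

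The make-up of the fibrinogen counts differed as well. In the 13 kidneys *Fga* took 70.4% to 88.9% of the counts of the 3 chains, *Fgb* 2.56% to 8.72% and *Fgg* 8.5% to 22.5%. In gastrocnemius CD replicate 1 the shares were 38.5% *Fga*, 35.3% *Fgb* and 26.2% *Fgg* of 462 counts, with a 95% exact Clopper-Pearson interval of 30.9% to 39.8% for *Fgb*. WD replicate 3 of that tissue gave 38.0%, 29.3% and 32.7% of 376 counts, with an interval of 24.7% to 34.1% for *Fgb*. Kidney WD replicate 5 lay between these patterns, with 53.5% *Fga* and 27.7% *Fgb* (26.1% to 29.4%), whereas kidney CD replicate 1 kept 79.8% *Fga* and 7.02% *Fgb* (6.27% to 7.82%), within the range of the other kidneys. Such intervals cover counting error only.

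**Figure D2:**
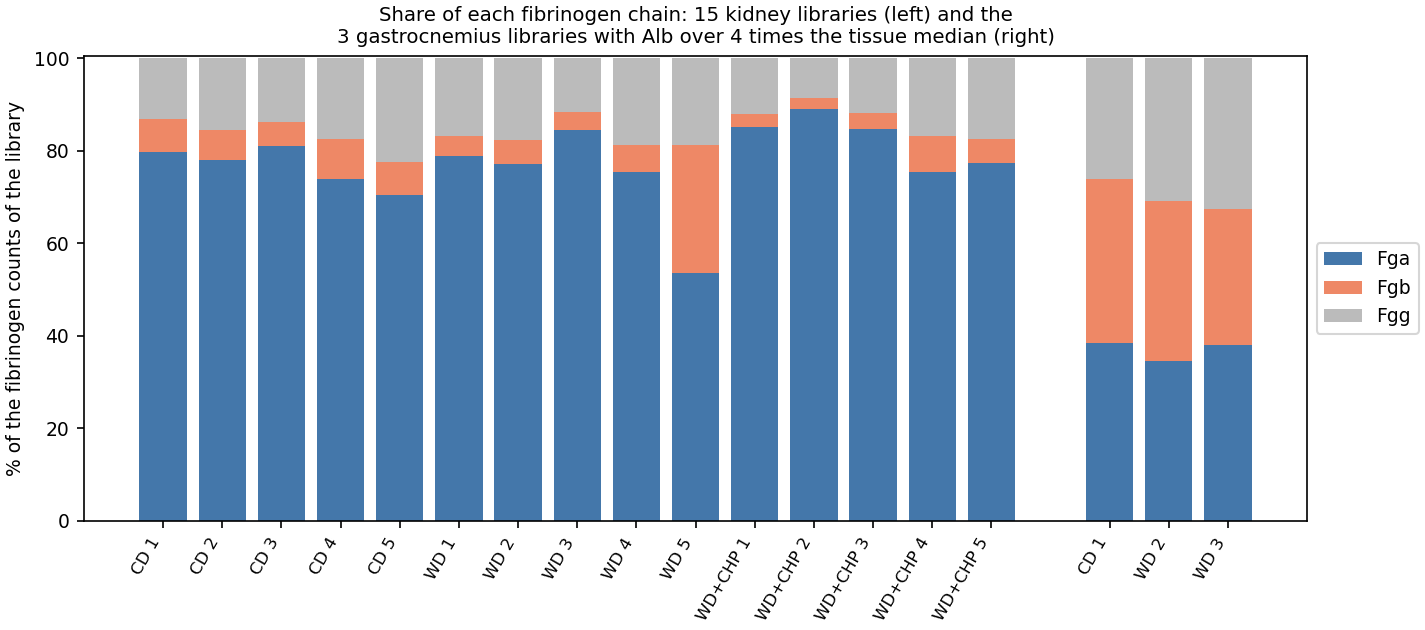
Percentage of the fibrinogen counts of a library (vertical axis) that fell on *Fga*, *Fgb* and *Fgg* in the 15 kidney libraries and in the 3 gastrocnemius libraries apart (horizontal axis). *Fgb* takes 27.7% in kidney WD replicate 5 and at least 29.3% in the 3 gastrocnemius libraries, against at most 8.72% in the other 14 kidneys.

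Within WD, the surplus of kidney replicate 5 over the median of replicates 1 to 4 was measured gene by gene. It held 4.69 CPM of *Fgb*, 3.94 of *Fga* and 2.23 of *Fgg* for each 100 CPM of surplus *Alb*. Taken the same way over the other libraries of their groups, the 3 gastrocnemius libraries apart held 4.16 to 6.65 of *Fgb*, 5.17 to 7.21 of *Fga* and 4.2 to 4.94 of *Fgg*, so *Fgb* in this kidney lay inside their range and the other chains below it. For *Ahsg* the surplus was 6.66 in this kidney, 7.06 in kidney CD replicate 1, and 5.55 to 7.08 in the 3 gastrocnemius libraries. In kidney CD replicate 1 the surplus *Fga* came to 50.3 per 100 of surplus *Alb*, well above that of the other 4, and its *Fgb* to 4.29. Whether carried-over liver RNA or renal transcription made up each share was not tested, and in bulk tissue fewer cells of a type cannot be told apart from less RNA per cell.

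Compared per kilobase of exon (union of GENCODE M21 exons), the median CD kidney levels ran from *Ttr* at 96.6 CPM per kb through *Fga* at 18.3, *Serpina1a* at 9.98, *Fgg* at 6.25, *Apoa2* at 6.23, *Alb* at 4.65 and *Fgb* at 1.66 to *Apoa1* at 0.803. *Mup20* and *Ahsg* stood last, at 0.0834 and 0.0827. *Ttr* lay above *Fga* in every CD kidney value, and *Alb* above *Fgb*, whereas the CD ranges of all other neighbours in this order overlapped. In WD the median of *Fgb* was 0.384 CPM per kb and that of *Alb* 8.02, so these medians lay further from each other than in CD.

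*Alb*, which encodes the main plasma protein, showed a low level in all kidneys under the high values of the libraries apart. CD kidneys had 81.4, 10.9, 9.07, 14.1 and 8.98 CPM, WD kidneys 16.6, 21.0, 15.1, 18.8 and 424 CPM, and WD + CHP kidneys 14.9, 20.4, 15.6, 27.8 and 21.3 CPM. Outside CD replicate 1 every CD kidney lay below every kidney of the other 2 groups, the reverse of the order of *Fgb*. The log2 fold change in WD vs. CD was 2.00 (SE 0.907) with all libraries and 0.73 (SE 0.185) without the libraries apart, with 10.8 ± 2.39 CPM (SD, n = 4) in CD and 17.9 ± 2.58 CPM (SD, n = 4) in WD. In WD + CHP vs. WD it was -2.31 (SE 0.923) with all libraries and 0.16 (SE 0.17) without the libraries apart. The 21 hepatocyte transcripts with low kidney counts summed to 43 to 91 counts in the 4 CD kidneys and 55 to 63 in the 4 WD kidneys, and to 47, 106, 120, 361 and 53 counts in the WD + CHP kidneys. The 3 ranges overlap, and WD + CHP replicate 4, with the highest sum of the 13 kidneys, also had their highest *Alb* level.

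*Apoa1*, *Ahsg* and *Mup20* had few reads outside the libraries apart, though *Apoa1* was counted in every kidney. *Apoa1*, the main protein of high-density lipoprotein, gave 338 counts in kidney CD replicate 1, 2143 in WD replicate 5 and 128 in WD + CHP replicate 4. The remaining 12 kidneys gave 22 to 61. *Ahsg* gave 197, 1056 and 43 counts in the same libraries and 0 to 19 in the rest. *Mup20* gave 217, 821 and 39 counts and 0 to 16 in the rest. For each of the 3 genes these kidneys were the top 3, with WD replicate 5 highest. Their log2 fold changes in WD vs. CD of 2.25 (*Apoa1*, SE 1.11), 2.28 (*Ahsg*, SE 1.31) and 1.81 (*Mup20*, SE 1.34) became 0.00 (SE 0.478), 0.42 (SE 0.951) and -0.10 (SE 1.19) without the libraries apart. *Mup20* belongs to a family of related genes among which reads may have been split, and the counting tool and strand setting are not given in the sources used here.

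*Apoa2*, the second protein of high-density lipoprotein, kept a floor of its own. Its kidney levels were 5.92, 3.35, 2.38, 3.84 and 2.62 CPM in CD, 3.61, 3.58, 3.93, 3.88 and 44.8 CPM in WD, and 2.74, 4.35, 3.87, 5.32 and 3.22 CPM in WD + CHP. All 3 groups overlapped, and WD replicate 5 was the only library above 6 CPM. The log2 fold change in WD vs. CD was 1.73 (SE 0.646) with all libraries and 0.30 (SE 0.184) without those apart.

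**Figure D3:**
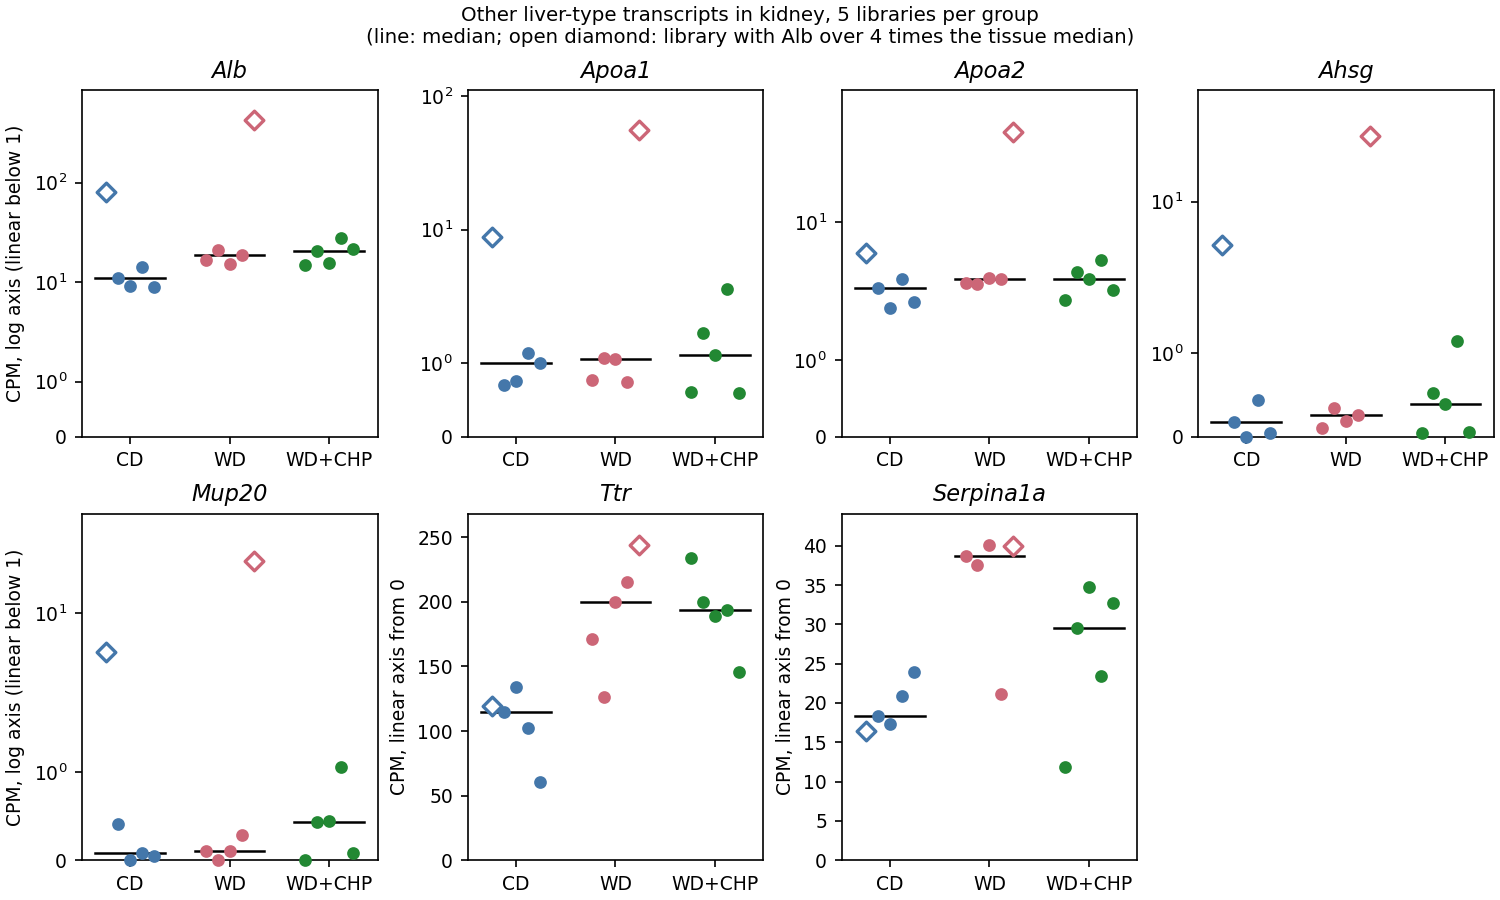
CPM of the 7 other members in the 5 kidney libraries per group (line, median). The log axes of *Alb*, *Apoa1*, *Apoa2*, *Ahsg* and *Mup20* are linear below 1, and those of *Ttr* and *Serpina1a* are linear. The open diamonds (CD replicate 1 and WD replicate 5) are the top values of *Alb*, *Apoa1*, *Ahsg* and *Mup20*, while in *Serpina1a* the CD diamond is the lowest CD value.

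*Ttr*, the carrier of thyroxine and retinol-binding protein, had the highest level per kilobase of the 10 in all 15 kidneys, and was higher on the Western diet. Levels were 119, 115, 134, 102 and 60.4 CPM in CD, 171, 126, 200, 215 and 244 CPM in WD, and 234, 200, 189, 194 and 146 CPM in WD + CHP. Only WD replicate 2 lay within the CD range, and no WD + CHP kidney did. The log2 fold change was 0.85 (SE 0.189) in WD vs. CD, 0.79 (SE 0.205) without the libraries apart, and 0.86 (SE 0.189) in WD + CHP vs. CD. WD + CHP and WD alone differed by 0.01 (SE 0.187). Per 100 *Alb* counts, the gastrocnemius libraries apart held 5.14 to 6.28 *Ttr* counts and kidney WD replicate 5 held 57.5.

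*Serpina1a*, 1 of 5 near-identical copies of α1-antitrypsin, an inhibitor of neutrophil elastase, was also higher in WD vs. CD. Levels were 16.4, 18.3, 17.3, 20.9 and 24.0 CPM in CD, 38.7, 37.5, 40.1, 21.1 and 40.0 CPM in WD, and 11.8, 29.6, 34.7, 23.4 and 32.7 CPM in WD + CHP. WD replicate 4 lay within the CD range, and WD + CHP replicate 1 lay below all CD kidneys. The log2 fold change was 0.87 (SE 0.227) in WD vs. CD, 0.77 (SE 0.26) without the libraries apart, and -0.43 (SE 0.224) in WD + CHP vs. WD. Reads may have been shared out among the copies, so their sum is given too. It was 142, 147, 178, 157 and 123 CPM in CD, 177, 168, 168, 88.2 and 206 CPM in WD, and 126, 182, 133, 120 and 134 CPM in WD + CHP, with overlapping groups. *Serpina1a* took 9.73% to 19.6% of that sum in CD, 19.5% to 23.9% in WD and 9.3% to 26.1% in WD + CHP. *Serpina1d* held most of the rest, at 62.2 to 145 CPM.

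With the quasi-likelihood test of edgeR at an adjusted p under 0.05, 3 of the 10 members passed in kidney WD vs. CD (*Ttr* and *Serpina1a* higher, *Fga* lower), where 9.65% of the 17120 genes tested did (4.62% higher and 5.03% lower). In WD + CHP vs. CD *Ttr* (higher) and *Fgg* (lower) passed, 2 of 10, where 12.1% of all genes did (6.25% higher and 5.84% lower). Without the libraries apart *Fga* and *Serpina1a* no longer passed in WD vs. CD, and *Ttr*, *Fgb*, *Fgg* and *Alb* did, where 6.11% of all genes passed. These 4 also passed in WD + CHP vs. CD, where 8.84% of all genes did. The members were chosen on these contrasts and nothing is read from the counts. The groups did not overlap for *Fgb* and *Ttr* in WD + CHP vs. CD (8.34% of all genes did not), and they overlapped for all 10 in WD vs. CD (8.7% of all genes did not) and in WD + CHP vs. WD (2.36%). Without the libraries apart they did not overlap for *Fgb* and *Alb* in WD vs. CD (13.3% of all genes), nor for *Fgb*, *Alb* and *Ttr* in WD + CHP vs. CD (10.5%), and overlapped for all in WD + CHP vs. WD (3.33%).

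In gastrocnemius the fibrinogen chains were confined almost wholly to the libraries apart. *Fga* had 178, 5, 1, 9 and 0 counts in CD replicates 1 to 5, 0, 28, 143, 4 and 1 counts in the WD muscles, and 2, 0, 1, 8 and 4 counts in the WD + CHP muscles. *Fgb* gave 163 counts in CD replicate 1, 28 in WD replicate 2, 110 in WD replicate 3 and 1 to 10 in the other 12. *Fgg* gave 121, 25 and 123 counts in these 3 and 0 to 8 in the others. None of the 3 chains passed the filter on low counts in this tissue, and no group difference was computed. A count of 0 allows up to 3 counts in a library.

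The other members had the same 3 muscles on top. *Alb* had 2473, 66, 20, 118 and 23 counts in the CD muscles, 34, 557, 2657, 187 and 20 counts in WD muscles, and 55, 14, 20, 92 and 34 counts in WD + CHP muscles. *Apoa1* reached 222, 49 and 246 counts in the 3 libraries apart, *Ahsg* 140, 38 and 159, and *Ttr* 127, 35 and 139. *Apoa2* reached 58, 28 and 120 counts, *Mup20* 150, 13 and 90, and *Serpina1a* 39, 10 and 38. In the 12 other muscles these 6 genes had at most 25 counts. The ratios to *Alb* were alike in the 3 libraries for *Apoa1*, at 8.98, 8.8 and 9.26 per 100 *Alb* counts, and for *Ttr*, at 5.14, 6.28 and 5.23. They were not alike for *Apoa2*, at 2.35 (95% exact interval 1.78 to 3.04) in CD replicate 1 and 4.52 (3.73 to 5.42) in WD replicate 3, nor for *Mup20*, at 6.07 (5.11 to 7.15) and 3.39 (2.71 to 4.18). *Fgb* gave 6.59 (5.59 to 7.73) and 4.14 (3.39 to 5.01) in these libraries. The kidney differed here in that *Ttr*, *Serpina1a*, *Apoa2* and the fibrinogen chains had at least 38 counts in all 15 libraries.

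**Figure D4:**
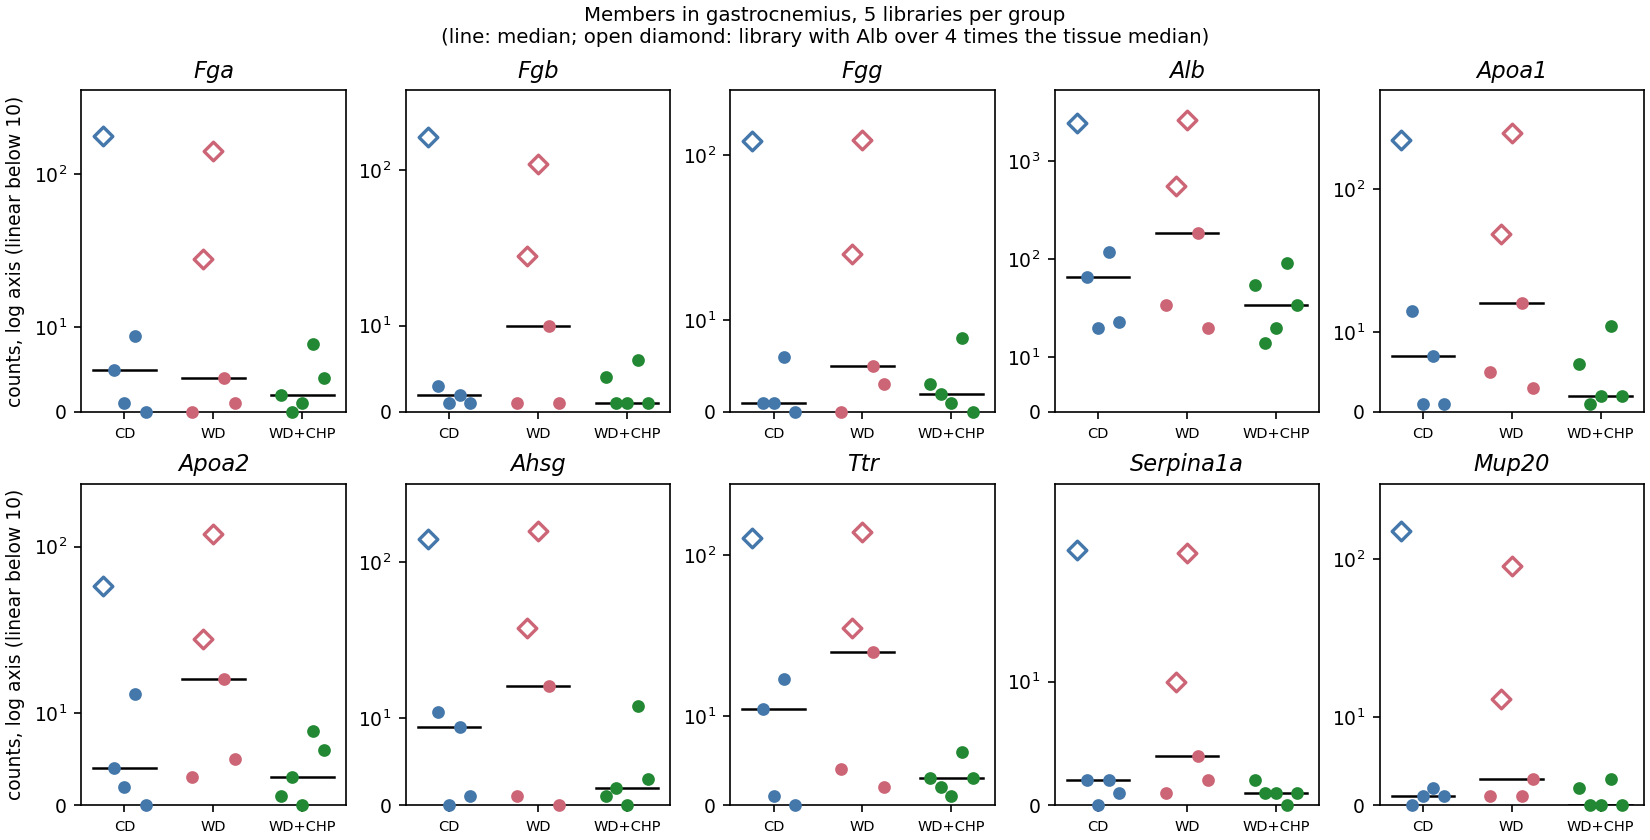
Counts of the 10 members in the 5 gastrocnemius libraries per group (vertical axes logarithmic, linear below 10; line, median). The 3 open diamonds, CD replicate 1 and WD replicates 2 and 3, hold the highest counts of all 10 panels, and *Fga* reaches at most 9 counts in the other 12 libraries.

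The log2 fold changes of the 5 members that passed the filter in gastrocnemius followed single libraries. In WD vs. CD *Alb* gave 0.28, which became -1.49 without WD replicate 3 and 3.51 without CD replicate 1. *Apoa1*, *Ahsg* and *Ttr* gave 0.31, 0.34 and 0.32, and *Apoa2* 1.08. These ran from -1.46, -1.27, -0.97 and -0.29 without WD replicate 3 to 3.37, 2.92, 2.40 and 2.74 without CD replicate 1. In WD + CHP vs. WD the 5 values lay between -3.15 and -3.93 with all libraries, and without the libraries apart *Ttr* gave -1.70 (SE 0.967), *Alb* -0.85, *Apoa1* -0.81 and *Ahsg* -0.60, while *Apoa2* no longer passed the filter. The groups overlapped for each of the 5 in both comparisons, where 7.84% and 2.83% of all genes did not.

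**Figure D5:**
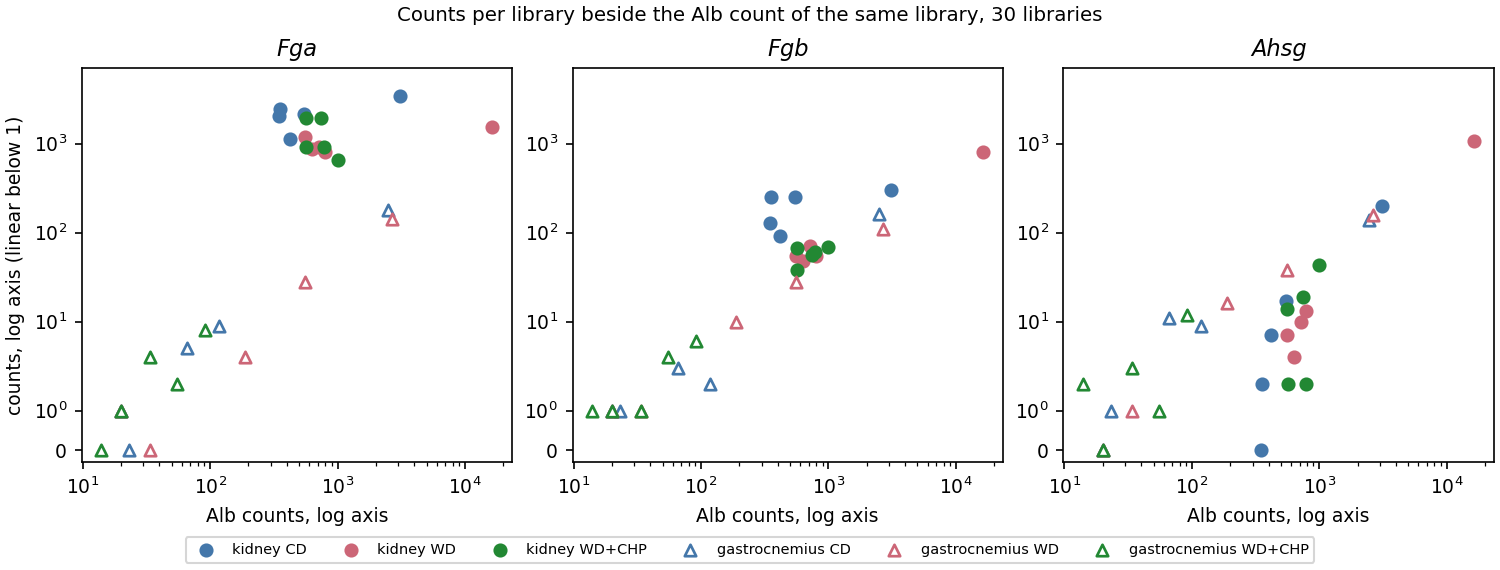
Counts of *Fga*, *Fgb* and *Ahsg* (vertical axes, logarithmic, linear below 1) beside the *Alb* count of the same library (horizontal axis, logarithmic) in 30 libraries. *Ahsg* is higher where *Alb* is higher among the libraries apart, whereas the kidneys hold 654 to 3434 *Fga* counts at *Alb* counts from 347 to 16419, far above the muscles with like *Alb* counts.

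The 6 kidney genes whose pattern over the 15 libraries was most like the mean of the 3 chains were *Med6*, a subunit of the Mediator complex (Spearman's rho 0.943), the secreted ribonucleases *Rnase4* (0.911) and *Ang* (0.907), which overlap in the genome and may share reads, *Pcgf2* (0.893), *Gnal* (0.893) and *Rnf43* (0.889). Their rho was 0.835 to 0.934 over the 13 libraries left without those apart. Those most like *Alb* included *Apoc1* (0.893), *Hp* (0.868), *Dnah5* (0.839), AC161438.1 (0.821) and *Pdlim5* (0.818). These are among the highest of all genes tested, ranked by likeness over libraries that share the group differences, and they carry no test.

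The pathway around fibrinogen was then examined with 6 lists that hold no member: other hepatocyte transcripts, acute-phase proteins, the interleukin 6 pathway with fibrinogen transcription factors, coagulation and fibrinolysis, fibrinogen receptors and binding partners, and tubular injury. In kidney, WD vs. CD gave 14 list genes of 99 tested that passed edgeR's test at an adjusted p under 0.05 (over all genes), 6 higher and 8 lower, which is 14.1% beside the 9.65% of all genes. Without the libraries apart 15 of 98 passed, beside 6.11% of all genes, and 10 of the 14 were among them.

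Of the acute-phase list, 7 of 14 genes were tested, 1 rose and 1 fell. *Serpina3n*, a serine protease inhibitor induced by inflammation, rose from 0.332 ± 0.0875 to 2.02 ± 2.04 CPM (SD, n = 5 each; log2 fold change 2.60, SE 0.523, edgeR adjusted p = 0.00571). WD replicate 5 held 5.63 CPM of it against 0.765 to 1.41 CPM in the other WD kidneys, and without the libraries apart the value was 1.84 (adjusted p = 0.00695). *A2m*, a broad protease inhibitor of plasma, fell from 0.716 ± 0.234 to 0.0533 ± 0.0535 CPM (log2 fold change -3.68, SE 0.547, edgeR adjusted p = 0.000731), with 0.439 to 1.02 CPM in CD and 0 to 0.108 CPM in WD. *Lcn2*, the neutrophil gelatinase-associated lipocalin, did not pass (0.45, SE 0.143, edgeR adjusted p = 0.0557). The median of the 7 was 0.36, beside 0.00 over all kidney genes.

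Of the interleukin 6 and transcription factor list, 20 of 23 genes were tested, 0 rose and 2 fell, with a median of -0.01. *Jak2*, the kinase that signals from the interleukin 6 receptor family, fell by 0.18 on the log2 scale (SE 0.0464, edgeR adjusted p = 0.0221), and by 0.16 without the libraries apart, where it did not pass (adjusted p = 0.0953).

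The coagulation and fibrinolysis list had 27 of 31 genes tested, of which 2 rose and 2 fell (median 0.08). *Plau*, the urokinase that activates plasminogen and so dissolves fibrin, fell from 668 ± 54.2 to 369 ± 50.9 CPM (log2 fold change -0.86, SE 0.126, edgeR adjusted p = 0.000673), with all CD kidneys above all WD kidneys. *F2rl1*, a receptor cleaved by proteases of the clotting cascade, fell by 0.25 on the log2 scale (edgeR adjusted p = 0.0207). *Thbd*, thrombomodulin, rose by 0.43 (edgeR adjusted p = 0.00637), and *Procr*, the endothelial protein C receptor, by 0.45 (edgeR adjusted p = 0.0422, and 0.105 without the libraries apart, where the log2 fold change was 0.43). *Plg*, plasminogen, gave 1.55 (SE 0.935) with all libraries and -1.56 (SE 0.417, edgeR adjusted p = 0.0378) without those apart, so its direction rested on them.

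Of 14 fibrinogen receptors and binding partners tested, 1 rose and 2 fell in kidney WD vs. CD (median 0.10). *Fn1*, fibronectin, which is cross-linked to fibrin, rose from 20.6 ± 4.49 to 30.8 ± 4.41 CPM (log2 fold change 0.58, SE 0.141, edgeR adjusted p = 0.0159). *Itga2b*, the platelet fibrinogen receptor subunit, fell by 0.33 on the log2 scale (edgeR adjusted p = 0.0154), and *Itgav*, the αv integrin, by 0.14 (edgeR adjusted p = 0.039, and 0.168 without the libraries apart, where the log2 fold change was -0.12). Of 11 tubular injury genes tested, *Clu*, clusterin, rose by 0.23 (edgeR adjusted p = 0.0183, and 0.0546 without the libraries apart, where the log2 fold change was 0.24). *Havcr1*, the injury marker KIM-1, gave 0.15 (SE 0.382, edgeR adjusted p = 0.856). The median of the 11 was 0.18, with 11 positive and 0 negative. Without the libraries apart it was 0.19, with 9 positive and 2 negative. The proximal tubule list summed to 42090 to 46600 CPM in CD, 38680 to 42380 CPM in WD and 42370 to 47960 CPM in WD + CHP. Of the 12 fast-fibre markers 4 passed the filter in kidney, and the list summed to 18.07 to 19.79 CPM in CD, 22.77 to 29.38 CPM in WD and 22.46 to 28.91 CPM in WD + CHP, so that all CD kidneys lay below the others. The part of either list in these differences was not tested.

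The hepatocyte list had 21 of 40 genes tested in kidney, of which *Ttpa*, the α-tocopherol transfer protein, rose by 0.68 (SE 0.146, edgeR adjusted p = 0.00818). *Serpinf2*, the α2-antiplasmin that inhibits fibrinolysis, fell from 398 ± 42.8 to 307 ± 24.1 CPM (log2 fold change -0.38, SE 0.0668, edgeR adjusted p = 0.00242). The median of the list was 0.40 with all libraries and -0.08 without those apart. Without them *Itih1*, *Itih2* and *Serpind1* passed as well, at -0.41, -0.70 and -1.50 (edgeR adjusted p = 0.0306, 0.0153 and 0.0307), and were named after their values were seen. *Itih1* and *Itih2* encode the heavy chains of a plasma protease inhibitor that binds hyaluronan, and *Serpind1* the thrombin inhibitor heparin cofactor II.

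In kidney WD + CHP vs. WD, 0 of 99 list genes passed with edgeR, 19 had an unadjusted p under 0.05, and DESeq2 called 1. The share called among all genes was 0.105%, and 0 of 98 list genes passed without the libraries apart, beside 0% of all genes and with 10 at an unadjusted p under 0.05. The median of the hepatocyte list was -0.58 with all libraries and 0.09 without WD replicate 5 and CD replicate 1.

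In gastrocnemius, 14 of 64 list genes passed in WD vs. CD (12 higher, 2 lower), or 21.9% beside 8.63% of all genes, and 5 of the 14 passed without the libraries apart, beside 3.08% of all genes. The acute-phase list led, with 4 of 6 genes tested higher. *Hp*, haptoglobin, rose from 7.87 ± 2.69 to 36.4 ± 7.54 CPM (log2 fold change 2.21, SE 0.308, edgeR adjusted p = 0.000376). *Serpina3n* rose by 1.68 (SE 0.201, edgeR adjusted p = 0.00012), *Orm1*, orosomucoid, by 1.74 (SE 0.336, edgeR adjusted p = 0.00401), and *Lbp*, which binds endotoxin, by 0.43 (edgeR adjusted p = 0.0094, and 0.074 without the libraries apart, where the log2 fold change was 0.41 and 3 of the 6 genes passed). *Hp* was 42.3, 38.5, 43.4, 32.5 and 25.3 CPM in WD and 9.81, 10.9, 8.57, 4.97 and 5.15 CPM in CD, so that the muscles rich in *Alb* counts did not stand out.

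Of the other lists in gastrocnemius WD vs. CD, the coagulation list had 5 of 20 genes tested higher and 0 lower. *F2r*, *Anxa2*, *S100a10* and *Thbd* rose by 0.44 to 0.58 (edgeR adjusted p = 0.0316, 0.0113, 0.023 and 0.00564). *Itgax* and *Itga5*, integrin subunits, rose by 0.96 and 0.47, and *Cebpa* by 0.49. *Lifr* and *Jak2* fell by 0.29 and 0.39 on the log2 scale. Without the libraries apart, *S100a10* and *Itga5* passed (edgeR adjusted p = 0.0466 and 0.0318), and *F2r*, *Anxa2*, *Thbd*, *Itgax*, *Cebpa*, *Lifr* and *Jak2* did not (edgeR adjusted p = 0.0812 to 0.248). Their log2 fold changes were then 0.38 (*F2r*), 0.46 (*Anxa2*), 0.39 (*Thbd*), 1.01 (*Itgax*), 0.39 (*Cebpa*), -0.33 (*Lifr*) and -0.45 (*Jak2*), of which *F2r* lay farthest from its value with all libraries. The 8 hepatocyte transcripts tested had a median log2 fold change of 0.47, and the 6 tested without the libraries apart a median of 0.01.

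In gastrocnemius WD + CHP vs. WD, *Hp* fell to 13.6 ± 6.8 CPM (log2 fold change -1.42, SE 0.296, edgeR adjusted p = 0.0452), *Serpina3n* fell by 1.12 (edgeR adjusted p = 0.017) and *Cebpa* by 0.68 (edgeR adjusted p = 0.0304), 3 of 64 beside 0.409% of all genes. Without the libraries apart 0 of 62 passed, with 10 at an unadjusted p under 0.05, on 4 CD, 3 WD and 5 WD + CHP muscles, and the log2 fold changes were -1.30, -1.05 and -0.61. All 10 adipocyte markers passed the filter, and their sum was 564 to 846.2 CPM over CD muscles, 713.6 to 861.4 over WD muscles and 698.4 to 786.6 over WD + CHP muscles. The median sums were 627, 835.8 and 756.5 CPM in that order of groups, so that of WD + CHP lay above that of CD. *Adipoq*, adiponectin, a gene of that list, had means of 7.89, 15.8 and 7.13 CPM, with WD + CHP below CD. The 8 macrophage markers had median sums of 61.65, 87.83 and 56.65 CPM in the same order, with overlapping ranges (51.66 to 87.18, 59.37 to 94.67 and 46.1 to 83.88 CPM). The 12 fast-fibre markers had median sums of 293600, 246300 and 247800 CPM, also with overlapping ranges. The part of adipocytes, macrophages and fibre type in the muscle differences, those of WD vs. CD included, was not tested.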

How the data were processed

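Sequencing measured RNA from both tissues, with 5 libraries for each of the 3 groups. The values the authors deposited are raw read counts by gene, not normalised. The submitters' processing notes name STAR 2.7.3a and the builds GRCm38 and mm10, and the counting tool, annotation and strand setting are not given in the sources used here. All columns were matched to a library by its title, with 0 left over.

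From the counts, genes were kept by filterByExpr (minimum count 10), scaled by TMM and fitted with the 3 groups of a tissue in 1 quasi-likelihood model (edgeR 4.0.16 in R 4.3.3), two-sided, with Benjamini-Hochberg adjustment over 17120 kidney and 15419 gastrocnemius genes and a threshold of 0.05. Each standard error is the absolute fold change divided by the root of F. log2 CPM used a prior count of 2. The fit was tested on simulated counts. p-values measure the spread between these libraries.

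The members and lists were chosen with earlier results of these data known, so nothing rests on a test of the members. Named were all 10 members; up to 5 list genes per list and comparison with an adjusted p under 0.05, by absolute log2 fold change; and the 6 kidney genes most like the fibrinogen mean and *Alb* by Spearman's rho. *Lcn2*, *Havcr1*, *Plg*, *Itih1*, *Itih2*, *Serpind1*, *Adipoq* and the copies of *Serpina1a* fall outside this rule and were added after their values were seen. A few genes the rule names are not reported here, though the counts include them. Promoter sequences are from RefSeq (GRCm38.p6), where 8 of the 10 members had an entry, and exon lengths from GENCODE M21. Alternatives were DESeq2 1.42.0, limma-voom (limma 3.58.1), other scalings, filters and thresholds, only the 2 groups compared, the replicate number as a block, each library left out in turn and, added after the data were seen, all libraries with *Alb* over 4 times the tissue median left out together. Same-numbered libraries showed no clear pairing, as the closing section gives.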

Additional observations from a re-analysis of the deposited data

Results flagged for a closer look

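Of 60 groups of 5 libraries (10 members, 2 tissues, 3 groups), 33 had a library whose gap to the nearest other, divided by the group's range, was above Dixon's 95% value of 0.71. Chance alone gives about 1 in 20 such groups, and the groups are not independent, since the same few libraries recur.

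Kidney WD replicate 5 was past this value as the highest library for 7 members, with ratios of 0.97 (*Fgb*), 0.834 (*Fgg*), 0.985 (*Alb*), 0.994 (*Apoa1*), 0.992 (*Apoa2*), 0.991 (*Ahsg*) and 0.986 (*Mup20*). It did not pass for *Fga*, *Ttr* or *Serpina1a*. Kidney CD replicate 1 was past it as the highest for 4, with 0.93 (*Alb*), 0.94 (*Apoa1*), 0.915 (*Ahsg*) and 0.927 (*Mup20*), and passed for no fibrinogen chain.

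Gastrocnemius CD replicate 1 was the highest for all 10 members, with 0.947 (*Fga*), 0.988 (*Fgb*), 0.948 (*Fgg*), 0.958 (*Alb*), 0.943 (*Apoa1*), 0.764 (*Apoa2*), 0.923 (*Ahsg*), 0.859 (*Ttr*), 0.946 (*Serpina1a*) and 0.986 (*Mup20*). Gastrocnemius WD replicate 3 was too, with 0.799 (*Fga*), 0.746 (*Fgb*), 0.792 (*Fgg*), 0.791 (*Alb*), 0.806 (*Apoa1*), 0.781 (*Apoa2*), 0.755 (*Ahsg*), 0.753 (*Ttr*), 0.751 (*Serpina1a*) and 0.862 (*Mup20*).

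Beside these, *Ahsg* was highest in gastrocnemius WD + CHP replicate 4 (0.757), at 12 counts against 0 to 3 in the others of its group. *Serpina1a* was lowest in kidney WD replicate 4 (0.864), the library in which *Serpina1b* and *Serpina1d* were also the lowest of the WD kidneys, at 4.64 and 62.2 CPM.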

How the results depend on the processing

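In kidney WD vs. CD, 14 list genes passed, and 11 to 16 did when each library was left out in turn, 13 to 19 under the other alternatives. In kidney WD + CHP vs. WD the count of 0 became 1 with DESeq2, 1 at an adjusted p under 0.1, and 0 to 1 with a library left out (1 without WD replicate 2). In gastrocnemius WD vs. CD the count of 14 ran from 8 to 13 with a library left out (8 without CD replicate 4, 9 without CD replicate 5 or WD replicate 2) and was 5 without the 3 libraries apart, which left fewer libraries per group. In gastrocnemius WD + CHP vs. WD the count of 3 became 6 with DESeq2, 1 with only the 2 groups compared, 0 without the libraries apart, and 0 to 5 with a library left out (0 when WD replicate 1 or either of WD + CHP replicates 3 and 5 was absent, 1 when WD replicate 2 or 3 or WD + CHP replicate 1 was absent, and 5 when WD + CHP replicate 2 was absent). The cause was not tested.

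The mean log2 fold change of the fibrinogen chains in kidney WD vs. CD was -0.63 and lay between -1.43 (without WD replicate 5) and -0.47 with a library left out. In WD + CHP vs. WD it was -0.63 and reversed to 0.18 without WD replicate 5 and to 0.175 without the 2 libraries apart, with -0.76 as the lowest value. In WD + CHP vs. CD it stayed between -1.43 and -1.10. Correlations of same-numbered libraries were -0.091 to 0.144 in kidney and -0.126 to 0.146 in gastrocnemius, and no clear pairing by number was seen. Libraries with different numbers were not correlated as a reference, so a weaker pairing could have been missed. With the replicate number as a block, 14, 0, 16 and 3 list genes passed in the order above, and the fibrinogen means were -0.84, -0.40 and -1.24. Among single members, 51 alternative values moved by more than the spread between libraries and 774 did not. That spread was taken with the libraries apart included, so it was wide. By the same measure, the shift of the fibrinogen mean to -1.28 in kidney WD vs. CD without the libraries apart did not count as moved (SD 0.665).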

Other observations

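Among the 5 libraries rich in liver-type counts, the make-up differed for some transcripts outside the members, as it did for *Fgb*, *Apoa2* and *Mup20*, and those given here were chosen after their values were seen. *Serpina1e*, a copy of α1-antitrypsin, had 6.83 counts per 100 *Alb* counts in gastrocnemius CD replicate 1 (95% exact binomial interval 5.81 to 7.99) and 7.81 in kidney CD replicate 1 (6.83 to 8.91). It had 0.151 (0.041 to 0.386) in gastrocnemius WD replicate 3, 0.718 (0.195 to 1.85) in gastrocnemius WD replicate 2 and 0.0609 (0.0292 to 0.112) in kidney WD replicate 5. *Bhmt*, an enzyme of methionine metabolism, had 8 counts in gastrocnemius CD replicate 1, which is 0.323 per 100 *Alb* counts (0.14 to 0.638), against 5.01 (4.17 to 5.96) in gastrocnemius WD replicate 3 and 7.54 (5.37 to 10.3) in gastrocnemius WD replicate 2. In kidney, *Bhmt* was also read in the other libraries of each group, with medians of 2.8 CPM in CD and 2.51 CPM in WD. Its raw ratio was 3.63 (2.98 to 4.38) in CD replicate 1 and 3.26 (2.98 to 3.55) in WD replicate 5. As surplus over those medians, it came to 0.225 per 100 CPM of surplus *Alb* in kidney CD replicate 1 and 2.78 in kidney WD replicate 5. *Serpina1e* was high in the 2 CD libraries and low in the 3 WD libraries, and the difference was not tested.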
